A study of Homo sapiens with 6 samples.

Results

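Small structured RNAs are the short RNAs that splice, modify and guide other RNAs and that sit at the core of several ribonucleoprotein particles. The genes described here were those of the count table whose symbol marked them as a small nuclear RNA (RNU), 7SK or 7SL RNA (RN7S), box H/ACA or box C/D small nucleolar RNA (SNORA, SNORD), small Cajal body RNA (SCARNA) or Y RNA (RNY), or which were RMRP, RPPH1 or the gene named 7SK. The measured counts entered this choice: of 3920 such genes, 100 were selected on having at least 10 counts in each DMSO library or in each THZ1 library. They were 100 of the 16460 genes that met this minimum, in a table of 57905 genes. The cells were NALM6, an established human line of B-cell precursor acute lymphoblastic leukemia. They received 500 nM THZ1, a covalent inhibitor of cyclin-dependent kinase 7 (CDK7), or the solvent DMSO for 24 h, with 3 libraries for each treatment. All 6 libraries came from this 1 line, and no label says whether the libraries of a treatment were separate cultures, so p-values measure only the spread between these libraries, which may be technical.

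Most spliceosomal small nuclear RNAs (U1, U2, U4 and U5) are made by RNA polymerase II (Pol II) from short promoters of their own. U6, 7SK, 7SL and RMRP are made by RNA polymerase III (Pol III). CDK7 is the kinase of the general factor TFIIH and phosphorylates the tail of Pol II, which Pol III lacks. U1, U2, U4, U5 and U6 build the spliceosome, 7SK RNA holds the elongation kinase P-TEFb inactive together with HEXIM1 and LARP7, 7SL RNA is the scaffold of the signal recognition particle, and RMRP is the RNA of RNase MRP. Box C/D RNAs guide ribose methylation and box H/ACA RNAs guide pseudouridylation of ribosomal RNA, while small Cajal body RNAs do the same for spliceosomal RNAs. Most human small nucleolar RNAs are cut out of introns of host genes, and U3 and U13 are exceptions with their own promoters. The human genome also holds very many copies of U6, 7SK, 7SL and other small RNAs, most of them pseudogenes.

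The DMSO libraries held between 11015480 and 11164840 counts and the THZ1 libraries between 7876402 and 8314306, so 10 counts stood for a higher share of a THZ1 library than of a DMSO library. Levels are given as CPM, the counts of a gene for every 1000000 counts of the library after scaling for library composition. They are shares of a library, and RNA per cell was not measured. All 8 B-cell precursor markers reported here had at least 10 counts in every library, whereas none of 3 T cell, 3 myeloid and 2 erythroid markers did, with at most 2, 71 and 3 counts in a library. Marker levels also differed between treatments: the summed mean CPM of the 8 B-cell precursor markers was 3253 with DMSO and 1348 with THZ1. CD79A alone of them was higher with THZ1, with a mean of 128.9 CPM with DMSO and 323.4 with THZ1, and each of the others was lower. Of the myeloid markers, CD14 had 7, 9 and 7 counts with DMSO and 58, 71 and 65 with THZ1, LYZ had 32, 37 and 21 against 7, 7 and 17, and MPO had 13, 9 and 17 against 12, 6 and 9. The part of these differences in the results below was not tested. Total RNA was the starting material, and the library kit, any selection for poly(A) or size, and the strand setting of the counting are not given in the sources used here. Many of these RNAs lack a poly(A) tail, so counts report how many of their fragments entered a library. How reads that match several copies were treated is likewise not given, and values of near-identical genes are uncertain. RNU1-2 had the same sequence as 5 other annotated genes.

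Genes were assigned to a polymerase by their symbol, and sequences around the start sites of some of them are shown here. Each line gives 80 bases before the annotated start and the first 10 bases of the RNA, read 5′ to 3′ on the gene's strand from GRCh37, and capitals mark the letters TATA (or TATATA) between 35 and 20 bases before the start.
RN7SK, chr6:52860338-52860427, plus strand: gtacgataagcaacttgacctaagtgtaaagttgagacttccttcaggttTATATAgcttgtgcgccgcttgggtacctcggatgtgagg
RNU6-8, chr14:32672466-32672555, minus strand: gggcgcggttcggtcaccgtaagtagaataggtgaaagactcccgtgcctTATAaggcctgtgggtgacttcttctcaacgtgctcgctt
RMRP, chr9:35658005-35658094, minus strand: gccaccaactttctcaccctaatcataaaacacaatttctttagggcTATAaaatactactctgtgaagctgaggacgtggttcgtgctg
RN7SL2, chr14:50329558-50329647, minus strand: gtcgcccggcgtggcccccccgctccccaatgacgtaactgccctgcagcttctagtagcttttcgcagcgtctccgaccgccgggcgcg
RNU1-2, chr1:17222395-17222484, plus strand: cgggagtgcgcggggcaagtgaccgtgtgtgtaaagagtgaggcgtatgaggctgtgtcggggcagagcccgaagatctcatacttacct
RNU5A-1, chr15:65588309-65588398, plus strand: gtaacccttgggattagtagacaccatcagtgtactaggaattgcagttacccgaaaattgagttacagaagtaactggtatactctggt
SNORD3A, chr17:19091249-19091338, plus strand: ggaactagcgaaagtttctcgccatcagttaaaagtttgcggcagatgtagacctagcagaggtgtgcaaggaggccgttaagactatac
The letters TATA, which read the same on both strands, were found for the Pol III genes RN7SK (first letter 30 bases before the start), RNU6-8 (30) and RMRP (33). They were not found for RN7SL2, whose promoter lies largely within the gene, nor for the Pol II genes RNU1-2, RNU5A-1, RNU5D-1, SNORD3A and SNORD3B-2. Of 64476 annotated gene starts, 4.85% held TATA in this window. A match describes these letters only.

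Most members were counted with THZ1 and hardly at all with DMSO. Of the 100 members, 78 reached 10 counts in each THZ1 library but not in each DMSO library, 11 did so with DMSO only, and 11 with both treatments. The share with THZ1 only was 78.0%, against 14.6% of all genes that met the same minimum, 6.68% of protein-coding genes, 32.3% of lncRNA genes and 57.6% of processed pseudogenes. The 11 of 100 with DMSO only compare with 7.6% of all genes, 4.87% of protein-coding genes, 13.5% of lncRNA genes and 18.3% of processed pseudogenes. In the THZ1 libraries 20 members had counts where all 3 DMSO libraries had 0, and 15 more had between 1 and 3 counts over the DMSO libraries together. Because the minimum itself selects genes that are high with 1 treatment, the directions of the 89 members counted with 1 treatment only follow from how they were chosen and are given as a description without a test.

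**Figure D1:**
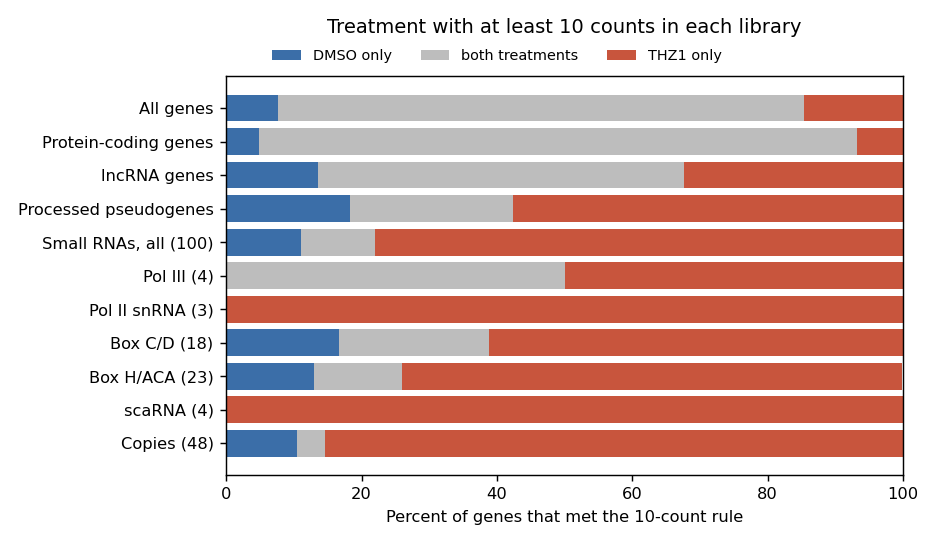
Percent of genes (horizontal axis) with at least 10 counts in each DMSO library only, in each library of both treatments, or in each THZ1 library only, for 4 gene sets and for the small RNA classes, with the number of members in parentheses. THZ1 only made up 78.0% of the small RNAs and 14.6% of all genes.

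By class, the 4 Pol III members without copies split into 2 counted with both treatments and 2 with THZ1 only. All 3 Pol II small nuclear RNAs and all 4 small Cajal body RNAs were counted with THZ1 only. Among 18 box C/D members, 11 were counted with THZ1 only, 4 with both and 3 with DMSO only. Among 23 box H/ACA members the numbers were 17, 3 and 3. The 48 pseudogene copies made up 41, 2 and 5. Copies were told by their symbol alone, so any copy without such a symbol stayed in another class. No gene of the count table was matched to the symbol RPPH1, the RNA of RNase P. Its level is therefore not known here, and the Pol III sum below lacks it. No gene was matched to the symbol RN7SL1 either, so that sum holds 7SL only through RN7SL2 and RN7SL3. The Pol II small nuclear RNA sum holds no gene named as a U2, U11 or U12 parent. Of the 57905 genes, 55538 had an entry in the annotation used. No Y RNA parent gene was among the members, and RNY5, one of the Y RNA genes, had 0 counts with DMSO and 7, 10 and 10 with THZ1.

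To compare classes without the 10-count minimum, counts were summed over every gene of a class by symbol. All 3920 genes together held 133, 146 and 127 CPM with DMSO and 810, 929 and 822 CPM with THZ1, a ratio of means of 6.31. The libraries of the treatments did not overlap for this sum or for any of the 6 class sums. Taken singly, 84.7% of all genes tested did not overlap either, in either direction. The exact two-sided permutation test gave p = 0.1 for each sum, the smallest value that 3 libraries against 3 allow. Any sum without overlap gets this value, so it adds nothing to the lack of overlap. The Pol II small nuclear RNAs had the highest ratio, 28.8, from 0.412 ± 0.295 to 11.8 ± 1.07 CPM (SD, n = 3), and rested on 1 to 8 counts per DMSO library. The Pol III RNAs had a ratio of 21.1, from 10.3, 10.9 and 8.86 CPM with DMSO to 172, 266 and 196 CPM with THZ1, and of 17.2 without RN7SL2.

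The other classes showed smaller ratios. The small Cajal body RNAs went from 2.02 ± 0.0996 to 19.3 ± 1.36 CPM, a ratio of 9.58. The copies went from 62.9 ± 6.37 to 384 ± 15.7 CPM, a ratio of 6.11, and were the class with the most counts under either treatment. Box C/D and box H/ACA RNAs had the lowest ratios, 3.71 for box C/D RNAs (29.3 ± 3.11 to 108.8 ± 1.45 CPM) and 3.86 for box H/ACA RNAs (30.7 ± 1.14 to 119 ± 7.11 CPM). The 3820 genes that missed the minimum also held more counts with THZ1, 297 ± 9.60 against 65.5 ± 5.68 CPM. The number of small RNA genes with at least 1 count was 358 to 396 in DMSO libraries and 716 to 739 in the shallower THZ1 libraries, while over the whole table it was 21414 to 21668 and 24276 to 24486.

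**Figure D2:**
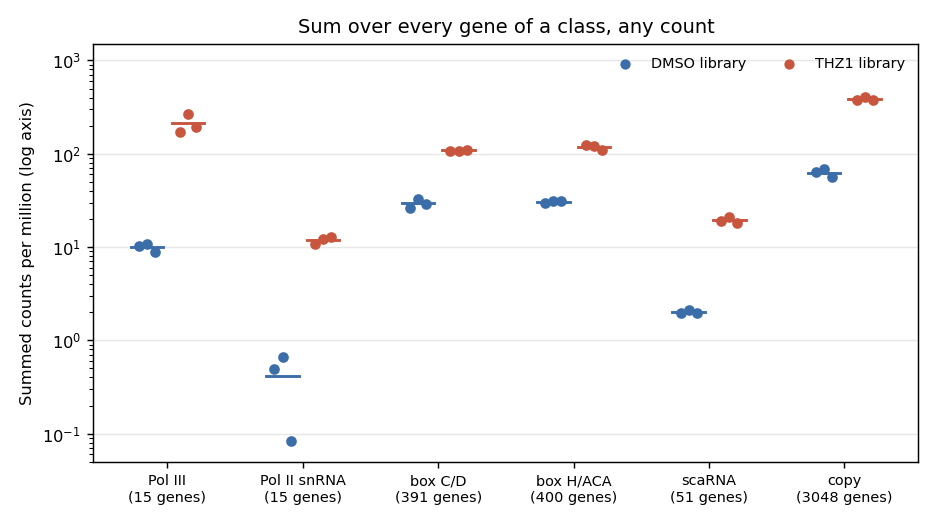
Summed CPM (vertical log axis) over every gene of a class by symbol, whatever its count, in each of the 6 libraries. Points are libraries and bars are treatment means. In all 6 classes the THZ1 libraries lay above the DMSO libraries, and the Pol III sum was highest in THZ1 replicate 2 (266 CPM).

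Among the Pol III genes, the members with the most counts were 7SL and 7SK. RN7SL2, a 7SL gene, had 88, 85 and 73 counts in DMSO libraries and 987, 1365 and 1116 in THZ1 libraries, or 6.80 ± 0.576 and 156 ± 30.2 CPM (SD, n = 3). It was counted in all 6 libraries, so that the minimum did not fix its direction, and it was higher with THZ1 by 4.52 on the log2 scale (SE 0.12, adjusted p = 1.1e-24, edgeR, quasi-likelihood, Benjamini-Hochberg over all 16622 genes tested). An exon of an annotated lncRNA covers it on the same strand, so their reads cannot be told apart.

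RN7SK, the 7SK gene, had 31, 32 and 27 counts in DMSO libraries and 237, 464 and 280 in THZ1 libraries, or 2.49 ± 0.184 and 44.3 ± 17.6 CPM. The lowest THZ1 library lay far above the highest DMSO library, and the gene was higher by 4.14 on the log2 scale (SE 0.22, adjusted p = 1.2e-17, edgeR). The first 108 of its 331 bases (chr6:52860418-52860525, plus strand) hold the stem known to bind HEXIM1, and are shown with the 3 occurrences of GATC, the letters of that binding motif, in capitals.
RN7SK: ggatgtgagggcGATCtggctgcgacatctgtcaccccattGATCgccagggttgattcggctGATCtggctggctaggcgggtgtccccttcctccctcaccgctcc
HEXIM1 mRNA itself went from 55.9 ± 1.07 to 816 ± 31.5 CPM, a log2 fold change of 3.87 (SE 0.07, adjusted p = 1.5e-28, edgeR), whereas LARP7, which stabilizes 7SK RNA, fell by 1.51 on the log2 scale (SE 0.10, adjusted p = 3.6e-15, edgeR). MEPCE, the enzyme that caps 7SK RNA, had a log2 fold change of 0.03 (SE 0.08, adjusted p = 0.70).

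RMRP and RNU6-8 were counted with THZ1 only. RMRP had 4, 12 and 3 counts with DMSO and 28, 51 and 20 with THZ1, or 0.523 ± 0.401 and 4.47 ± 2.30 CPM, and replicate 2 was the highest library of either treatment. Its identifier was paired with the symbol by the second deposited table and had no entry in the annotation used here, so the position above is that of the annotated RMRP. RNU6-8, a U6 gene, had 0, 2 and 2 counts with DMSO and 38, 25 and 26 with THZ1, or 0.111 ± 0.0961 and 3.98 ± 0.883 CPM.
The remaining U6 parent genes held few counts. RNU6-2 had 0, 1 and 0 with DMSO and 3, 4 and 7 with THZ1, and RNU6-1, RNU6-7 and RNU6-9 at most 2 in any library. THZ1 replicate 2 was the highest THZ1 library for RN7SL2, RN7SK and RMRP but not for RNU6-8. With each of the 6 libraries left out in turn, the fitted log2 fold change ranged from 4.34 to 4.63 for RN7SL2 and from 3.77 to 4.34 for RN7SK.

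**Figure D3:**
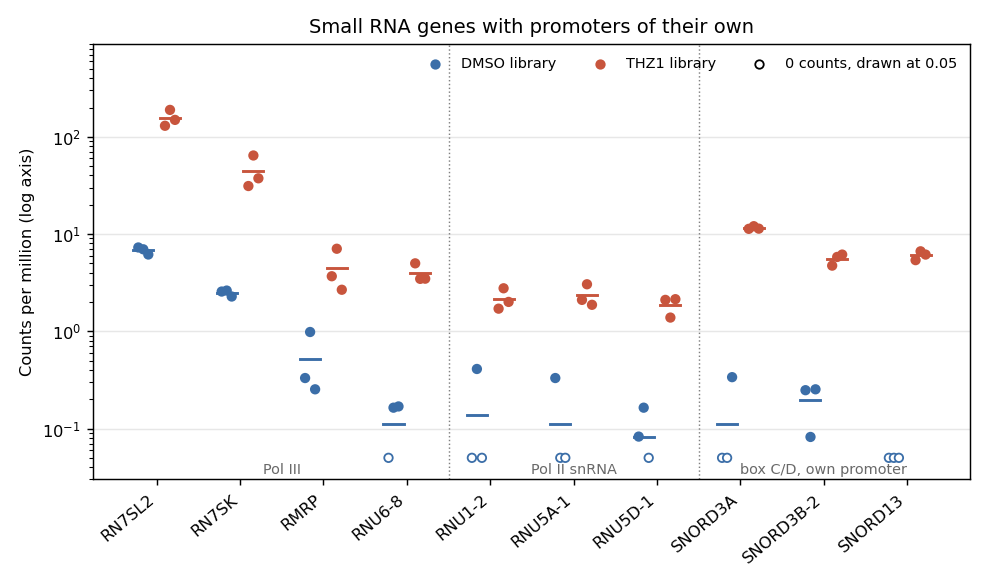
CPM (vertical log axis) of 10 small RNA genes with promoters of their own in each of the 6 libraries. Points are libraries, bars are treatment means, and open points at 0.05 stand for 0 counts. RN7SL2 and RN7SK, the only ones of the 10 with at least 10 counts in every DMSO library, also had the most counts with THZ1.

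All 3 Pol II small nuclear RNA members were near 0 with DMSO. RNU1-2, a U1 gene, had 0, 5 and 0 counts with DMSO and 13, 20 and 15 with THZ1. The 2 U5 genes were RNU5A-1, with 4, 0 and 0 against 16, 22 and 14 counts, and RNU5D-1, with 1, 2 and 0 against 16, 10 and 16 counts. In each of the 3 genes the lowest THZ1 library held more CPM than the highest DMSO library. Treatments did not overlap, in either direction, for 84.7% of all genes tested. They did not overlap for 77 of the 78 members counted with THZ1 only, whose direction the minimum fixed. For RNU5D-1 the ratio of CPM was 22.7 (exact 95% interval for counting error only, 7.25 to 114). The minimum fixed the direction of this gene, so the interval is no test.

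RNU1-2 lies within an intron of CROCC, a gene of the ciliary rootlet, on the same strand. CROCC mRNA fell by 1.74 on the log2 scale (SE 0.12, adjusted p = 2.5e-14, edgeR), from 43.0 ± 0.765 to 12.9 ± 2.66 CPM. Of 12 genes of this class that missed the minimum, some were likewise counted with THZ1 and at 0 with DMSO. RNU1-1 had 0 in each DMSO library against 13, 9 and 16, RNU4-1 had 0 against 5, 7 and 5, RNU4-2 had 0 against 3, 9 and 2, and RNU5E-1 had 0 against 4, 4 and 13. Others had hardly any counts: RNU1-3 had 0 against 1, 0 and 0, RNU5B-1 had 0 against 0, 0 and 2, and RNU5F-1, RNU7-1, RNU105B and RNU105C had 0 in all 6 libraries. No gene named as a U2 parent was a member, and U2 was represented by copies only.

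The small nucleolar RNAs made from their own Pol II promoters followed the small nuclear RNAs in this respect. SNORD3A, a U3 gene needed for the first cuts of ribosomal precursor RNA, had 0, 0 and 4 counts with DMSO and 86, 87 and 85 with THZ1, or 0.113 ± 0.195 and 11.6 ± 0.409 CPM. SNORD3B-2, another U3 gene, had 3, 1 and 3 against 36, 42 and 46 counts. U3 genes have near-identical sequences, so reads could have been divided among them. SNORD13, the U13 gene, had 0 counts in each DMSO library and 41, 48 and 46 with THZ1, which is at least 24.3-fold higher when each DMSO library is set to 3 counts. The annotated U3 genes, 699 bases for SNORD3A, are longer than the RNA, and reads beyond its end are included in these counts.

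Per kilobase of annotated length, RN7SL2 was the highest of the genes with their own promoters under both treatments, at 22.9 CPM per kilobase with DMSO and 525 with THZ1. RN7SK followed with 7.52 and 134 CPM per kilobase. With THZ1 the next were SNORD13 (58.3), RNU6-8 (37.2), RNU5A-1 (20.2), SNORD3A (16.6), RNU5D-1 (16.2), RNU1-2 (13.2) and SNORD3B-2 (7.04). RMRP, whose counted identifier has no annotated length, was left out of this order. RNU5A-1 and RNU5D-1, neighbours but for SNORD3A in this order, overlapped between libraries, with 1.87 to 3.05 and 1.38 to 2.14 CPM at the same length.

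The 11 members counted in all 6 libraries are those whose direction the minimum left free. Of these, 5 were higher with THZ1 (RN7SL2, RN7SK, SNORD17, SNORD4A and SNORD125) and 1 was lower (the copy RNU6-395P) at an adjusted p below 0.05 (edgeR). Among the 12808 genes with at least 10 counts in all 6 libraries, 36.3% were higher and 46.4% were lower. By at least 1.5 on the log2 scale 4 members were higher, against 12.6% of those genes, and 0 were lower, against 11.5%. The count of 0 was the same at an unadjusted p below 0.05 and with DESeq2. The median log2 fold change of the 11 was 0.52, beside −0.16 for the 12808 genes. It was 4.33 for the 2 Pol III members, 1.56 for the 4 box C/D members, −0.15 for the 3 box H/ACA members and −0.11 for the 2 copies. CPM did not overlap between treatments for 6 of the 11, against 83.1% of the 12808 genes.

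**Figure D4:**
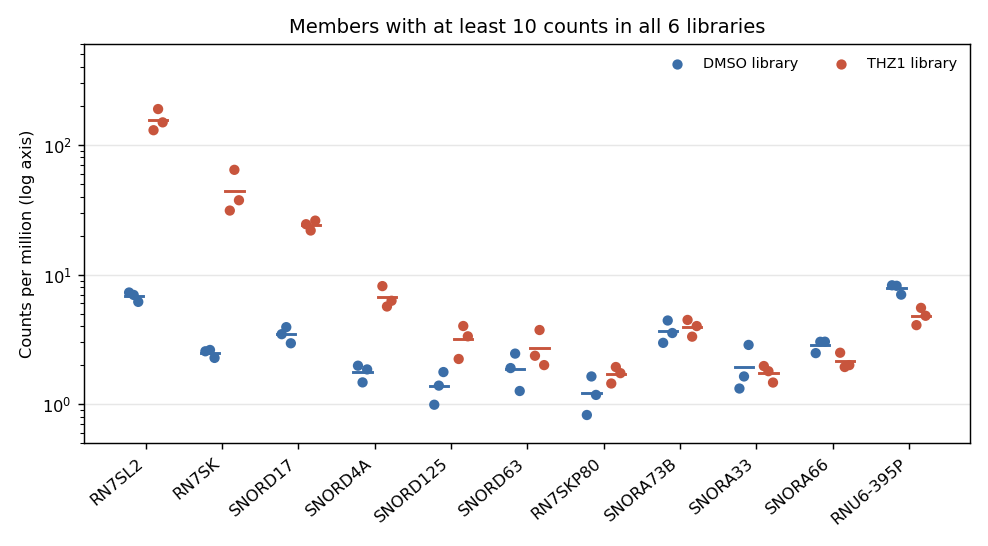
CPM (vertical log axis) of the 11 members with at least 10 counts in every library, ordered from the highest to the lowest fitted log2 fold change. Points are libraries and bars are treatment means. The treatments were apart for the 5 members on the left and for RNU6-395P on the right, and the box H/ACA RNAs SNORA73B and SNORA33 overlapped.

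The box C/D RNAs that rose are shown with the conserved boxes that give the class its name. Capitals mark the C box letters TGATGA within the first 30 bases and the D box letters CTGA within the last 20 bases, searched on the strand of the RNA.
SNORD17, chr20:17943353-17943589, minus strand: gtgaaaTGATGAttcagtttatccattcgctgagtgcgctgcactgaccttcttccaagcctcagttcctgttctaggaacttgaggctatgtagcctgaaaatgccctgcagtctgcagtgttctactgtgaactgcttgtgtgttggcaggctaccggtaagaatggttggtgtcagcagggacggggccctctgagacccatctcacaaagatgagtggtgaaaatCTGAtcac
SNORD4A, chr17:27049600-27049671, plus strand: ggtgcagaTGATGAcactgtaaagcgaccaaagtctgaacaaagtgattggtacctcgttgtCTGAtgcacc
SNORD125, chr22:29729152-29729247, minus strand: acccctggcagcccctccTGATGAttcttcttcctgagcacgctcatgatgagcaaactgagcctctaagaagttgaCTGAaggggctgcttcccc
Of the 18 box C/D members, 11 held both boxes by this search, 11 the C box letters and 15 the D box letters. SNORD17 had 42, 48 and 35 counts with DMSO and 186, 158 and 195 with THZ1, 3.45 ± 0.491 and 24.1 ± 2.12 CPM, and was higher by 2.80 on the log2 scale (SE 0.16, adjusted p = 2.1e-16, edgeR). It lies in an intron of SNX5, a sorting nexin gene, which was higher by 1.75 on the log2 scale (SE 0.07, adjusted p = 6.3e-21, edgeR).

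SNORD4A and SNORD125 rose while their hosts fell. SNORD4A had 24, 18 and 22 counts with DMSO and 62, 41 and 47 with THZ1, 1.77 ± 0.265 and 6.70 ± 1.29 CPM, and was higher by 1.92 on the log2 scale (SE 0.25, adjusted p = 3.7e-08, edgeR). Its host RPL23A, a ribosomal protein gene, fell by 0.96 on the log2 scale (SE 0.08, adjusted p = 1.3e-12, edgeR). SNORD125 had 12, 17 and 21 counts with DMSO and 17, 29 and 25 with THZ1, 1.39 ± 0.390 and 3.20 ± 0.898 CPM, and was higher by 1.20 on the log2 scale (SE 0.33, adjusted p = 0.0013, edgeR). Its host AP1B1, a clathrin adaptor gene, fell by 0.74 on the log2 scale (SE 0.07, adjusted p = 3.7e-11, edgeR).

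Of the 2 genes named SNORD63, the one at chr5:137894659-137894728 had 23, 30 and 15 counts with DMSO and 18, 27 and 15 with THZ1, and its log2 fold change of 0.52 (SE 0.33) missed the threshold (adjusted p = 0.14, edgeR). The other, at chr5:137896732-137896799, had 3, 7 and 2 counts with DMSO and 13, 14 and 10 with THZ1. Both overlap exons of HSPA9, a mitochondrial chaperone gene, on the same strand, so their counts can hold reads of its transcripts, which fell by 1.28 on the log2 scale (adjusted p = 1.5e-17, edgeR). The 11 box C/D members counted with THZ1 only also included SNORD94, with 19, 20 and 9 counts against 44, 50 and 51, in an intron of PTCD3, whose mRNA fell by 0.82 on the log2 scale (adjusted p = 4.3e-12, edgeR). SNORD91A, in an intron of TSR1, had 1 count with DMSO and 18, 21 and 21 with THZ1. The ratio was 97.2 (exact 95% interval for counting error only, 16.8 to 3903), which is no test, since the minimum fixed the direction. TSR1 had a log2 fold change of 0.03 (adjusted p = 0.73, edgeR).

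No box H/ACA RNA counted in all 6 libraries passed the test. SNORA73B, which takes part in ribosomal RNA processing, had 36, 54 and 42 counts with DMSO and 34, 24 and 30 with THZ1, or 3.65 ± 0.730 and 3.94 ± 0.578 CPM, a log2 fold change of 0.11 (SE 0.25, adjusted p = 0.68, edgeR). SNORA33 had 16, 20 and 34 against 15, 13 and 11 counts, a log2 fold change of −0.15 (SE 0.36, adjusted p = 0.70, edgeR). A second gene named SNORA66 missed the minimum, with 12, 11 and 9 counts with DMSO and 12, 16 and 7 with THZ1. The SNORA66 member is 53 bases long, and its last 10 bases do not hold the letters ACA. This member had 30, 37 and 36 against 19, 14 and 15 counts, a log2 fold change of −0.40 (SE 0.30, adjusted p = 0.20, edgeR). These standard errors leave room for changes of either sign. The signs for SNORA73B and SNORA33 turned under other scalings or with 1 library left out.

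The sequences of a box H/ACA RNA counted in all libraries and of the one with the most counts with THZ1 are given next, with the ACA letters within the last 10 bases in capitals.
SNORA33, chr6:133138358-133138487, plus strand: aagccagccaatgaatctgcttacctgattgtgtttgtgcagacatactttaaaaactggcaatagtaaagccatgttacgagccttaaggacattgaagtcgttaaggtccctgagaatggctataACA
SNORA31, chr13:45910449-45910582, minus strand: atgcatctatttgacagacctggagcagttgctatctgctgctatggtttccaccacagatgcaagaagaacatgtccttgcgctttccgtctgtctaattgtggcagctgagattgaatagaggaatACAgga
Of the 23 box H/ACA members, 20 held ACA there. SNORA31, named SNORA31B by the authors, had 4, 6 and 7 counts with DMSO and 162, 127 and 142 with THZ1. These were 0.471 ± 0.131 and 19.3 ± 1.88 CPM, the most counts of the members counted with THZ1 only. SNORA31 overlaps an exon of TPT1, a gene of translation-controlled tumor protein, whose mRNA had a log2 fold change of 0.02 (SE 0.07, adjusted p = 0.76, edgeR) at 1722 ± 142 and 1749 ± 52.6 CPM. SNORA65, in an intron of the ribosomal protein gene RPL12, had 1, 6 and 7 counts against 43, 50 and 31, and RPL12 was higher by 0.23 on the log2 scale (adjusted p = 0.0062, edgeR).

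A single host, the noncoding gene SNHG17, holds 4 box H/ACA members of 1 family, of which 2 were counted with THZ1 only and 2 with DMSO only. SNORA71B had 15, 12 and 7 counts with DMSO and 63, 40 and 36 with THZ1, or 0.938 ± 0.327 and 6.21 ± 1.83 CPM. SNORA71D had 0, 7 and 1 against 13, 12 and 11 counts. SNORA71A had 13, 19 and 13 against 6, 10 and 5, and SNORA71C had 15, 20 and 18 against 8, 16 and 8. In CPM, SNORA71A (1.24 ± 0.272 and 0.947 ± 0.383) and SNORA71C (1.47 ± 0.205 and 1.45 ± 0.666) overlapped between treatments. SNHG17 was higher by 1.01 on the log2 scale (SE 0.08, adjusted p = 4.3e-13, edgeR), and 3 of the 4, all but SNORA71B, overlap its exons.

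All 4 small Cajal body RNAs were counted with THZ1 only. SCARNA17 had 0, 2 and 3 counts with DMSO and 21, 23 and 15 with THZ1, and SCARNA9 had 5, 2 and 5 against 19, 17 and 16. SCARNA1 and SCARNA4 had 0 counts in each DMSO library against 18, 16 and 13 and 12, 18 and 18 with THZ1, at least 8.46-fold and 8.67-fold higher. SCARNA4 shares the host KHDC4 with the SNORA42 gene of chromosome 1, which had 0 in each DMSO library against 15, 23 and 23 counts, and KHDC4 was higher by 1.53 on the log2 scale (adjusted p = 4e-19, edgeR). SCARNA1 lies in PPP1R8, which fell by 0.50 on the log2 scale (adjusted p = 1e-06, edgeR).

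The host genes did not share a direction. Of the 45 small nucleolar and small Cajal body RNAs, 39 lay inside a host gene on the same strand, 28 in an intron and 11 over an exon. Of the 32 hosts tested, 13 were higher and 12 lower (edgeR), against 43.5% and 41.1% of all 16622 genes tested, and 7 passed in neither direction. Their median log2 fold change was 0.00 (0.00432 before rounding), beside 0.03 for all genes tested. Among the 26 members counted with THZ1 only whose host was tested, the host was higher for 13, lower for 8 and not called for 5. IARS1, an aminoacyl-tRNA synthetase gene, was the host that fell most, by 2.33 on the log2 scale, and its SNORA84 had 3, 4 and 1 counts with DMSO and 26, 12 and 20 with THZ1.

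**Figure D5:**
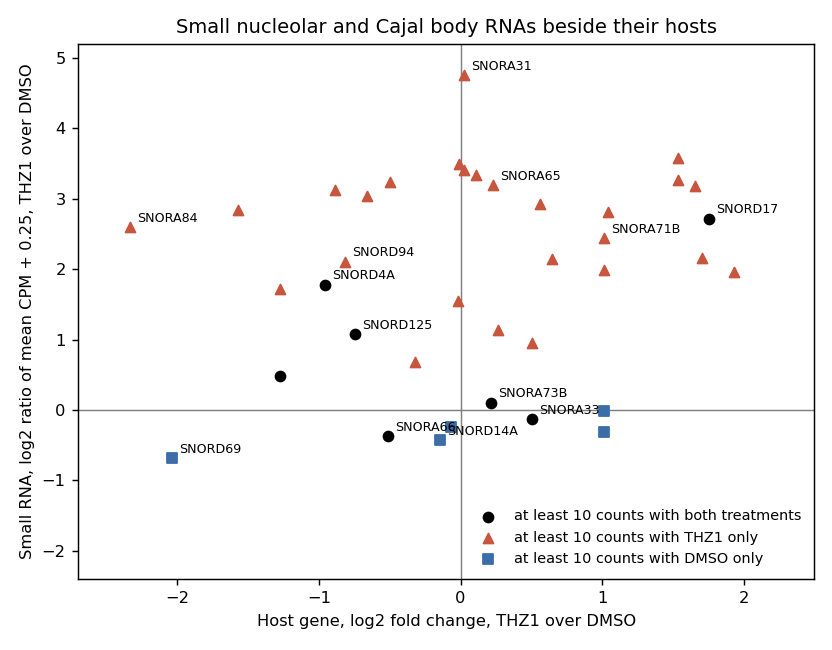
Log2 fold change of the host gene (horizontal axis) and log2 ratio of mean CPM of the small RNA after adding 0.25 to each mean (vertical axis), THZ1 over DMSO, for 38 small nucleolar and small Cajal body RNAs with a tested host. Symbols show with which treatment the small RNA had at least 10 counts in each library. Of 17 RNAs whose host had a value below 0, 13 had a value above 0, but the minimum fixed the direction of those counted with THZ1 only, so this count is a description.

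Pseudogene copies made up 48 members, 23 of 7SL, 9 of U6, 4 of 7SK, 3 each of U2 and U4, 2 each of U1 and U7, and 1 each of U12 and a Y RNA. RNU12-2P, classed as a copy by its symbol, was the only gene of U12 by symbol. Of the 23 copies of 7SL 20 were counted with THZ1 only and 3 with DMSO only. Of the 9 copies of U6 the numbers were 7 and 1, with 1 counted in all libraries. Compared over the longer sequence of each pair, the 4 copies of 7SK shared 75.5% to 81.3% of bases with RN7SK, the 3 copies of U4 shared 48.7% to 78.7% with RNU4-2 and the 2 copies of U7 shared 73.0% to 77.8% with RNU7-1. Of the 2 copies of U1, RNU1-60P shared 73.2% and RNU1-134P 90.9% with RNU1-2, and RNY4P10 shared 91.7% with RNY4. Identities of the copies of 7SL and U6 are not used here.

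The other copies with the most counts were counted with THZ1 only. RN7SL832P, annotated as a lncRNA of 1756 bases, had 9, 10 and 14 counts with DMSO and 91, 138 and 130 with THZ1, or 0.915 ± 0.234 and 16.2 ± 3.72 CPM. RN7SL521P had 4, 2 and 4 against 81, 71 and 73 counts and lies in an intron of the zinc finger gene ZNF425, which was higher by 2.44 on the log2 scale (adjusted p = 9.1e-11, edgeR). RN7SL472P had 1 count with DMSO and 55, 77 and 67 with THZ1. The ratio was 322 (exact 95% interval for counting error only, 57.2 to 12800), which is no test, since the minimum fixed the direction. RN7SL472P lies within 10 kb after the end of HSP90AA1, a chaperone gene that fell by 1.37 on the log2 scale (adjusted p = 3e-18, edgeR).

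RN7SL473P and RN7SL600P both lie in an annotated intron of MCL1, an antiapoptotic gene, and had 0 counts in each DMSO library. With THZ1 they had 62, 59 and 55 counts and 62, 65 and 71 counts, at least 31.7-fold and 35.7-fold higher. MCL1 was higher by 1.64 on the log2 scale (adjusted p = 2.1e-20, edgeR).

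Of the 48 copies, 24 lay inside a host gene on the same strand and 24 did not, and 21 and 20 of them were counted with THZ1 only. Of the latter 24, 14 overlap a gene on the opposite strand, whose reads the unknown strand setting may have included. Of 20 tested hosts of copies, 12 were higher and 5 lower (edgeR), against 43.5% and 41.1% of all genes tested, with a median log2 fold change of 0.57 beside 0.03 for all genes tested. In all, 17 of the 100 members, 5 copies among them, overlap an exon of another gene on the same strand, and how many of their reads belong to that gene was not tested.

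The copies were not all higher with THZ1. RNU6-395P, a copy of U6, had 100, 100 and 83 counts with DMSO and 31, 40 and 36 with THZ1, or 7.82 ± 0.710 and 4.81 ± 0.730 CPM, and fell by 0.70 on the log2 scale (SE 0.20, adjusted p = 0.0018, edgeR). Per kilobase it had 73.8 CPM with DMSO and 45.4 with THZ1, against 22.9 and 525 for RN7SL2. It lies opposite to POLR2D, a Pol II subunit gene, so with an unknown strand setting its reads cannot be told apart from those of POLR2D. RN7SKP80, a copy of 7SK, had 10, 20 and 14 against 11, 14 and 13 counts, a log2 fold change of 0.48 (SE 0.37, adjusted p = 0.23, edgeR). RNU6-254P, another copy of U6, had 0 counts in each DMSO library and 22, 14 and 27 with THZ1, at least 11.3-fold higher.

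The 11 members counted with DMSO only were 3 box C/D RNAs, 3 box H/ACA RNAs and 5 copies. RN7SL737P had 36, 19 and 30 counts with DMSO and 5, 4 and 7 with THZ1, 2.36 ± 0.726 and 0.716 ± 0.198 CPM, and overlaps an exon of MRPL42, which fell by 1.06 on the log2 scale (adjusted p = 8.7e-13, edgeR). RNU6-850P had 21, 37 and 21 against 13, 13 and 8 counts. SNORD14A, in an intron of the ribosomal protein gene RPS13, had 22, 32 and 17 against 9, 7 and 15 counts, or 1.96 ± 0.606 and 1.39 ± 0.547 CPM, which overlapped. CPM overlapped between treatments for 5 of these 11 members and was apart for 6, against 84.7% of all genes tested. Mean CPM was higher with THZ1 for 86 of the 100 members and lower for 14.

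At the minimum itself, 13 members had 10 as the lowest count in the treatment that admitted them, and 14 genes stood just outside at 9. Just inside were the gene named 7SK, with 0 in each DMSO library against 11, 10 and 10 counts, and RN7SKP30, with 0 against 13, 18 and 10. Just outside were RN7SL182P, with 0, 0 and 1 against 11, 9 and 14, and RN7SL285P, with 0 against 9, 15 and 15.

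The protein partners of these RNAs were described by 14 lists of 109 genes, all but 2 of which were tested. Of those tested, 27 were higher and 67 lower with THZ1 (edgeR), against 43.5% and 41.1% of all genes tested, and the median log2 fold change was −0.50. All 4 core proteins of box H/ACA particles fell, from a log2 fold change of −0.32 for NOP10 to −2.03 for GAR1. Of the 7 Sm proteins, which form the ring around Pol II small nuclear RNAs, 6 fell, with −2.47 for SNRPD1, while SNRPD2 had 0.11 (adjusted p = 0.24). Of 4 box C/D core proteins 3 fell, the methyltransferase FBL with −1.33, and NOP56 was higher by 1.61. Of 6 proteins of the signal recognition particle 4 fell, with −1.34 for SRP54, and 2 were higher.

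The factors that start transcription of small RNA genes went in both directions. Each count in this paragraph stands beside 43.5% higher and 41.1% lower among all genes tested. Of 8 genes for SNAPc, TBP and their partners at small nuclear RNA promoters, 4 were higher and 4 lower. ZNF143, which binds upstream of many of these promoters, was higher by 1.78 on the log2 scale, and TBP fell by 1.14. Of 11 genes listed as Pol III factors, 3 were higher and 7 lower. Those 7 include GTF3A and MAF1, which belong to neither TFIIIB nor TFIIIC, and MAF1 is a repressor of Pol III. The other genes of this list are genes of TFIIIB and TFIIIC. Among them BRF2, the TFIIIB subunit used at U6 and 7SK, went from 14.5 ± 0.547 to 40.9 ± 1.94 CPM. Of 10 tested protein genes of RNase P and RNase MRP, 3 were higher and 5 lower, from 1.75 for POP7 to −1.65 for RPP40. Among 15 genes of the nuclear exosome and of trimming enzymes, 10 were lower, with −1.74 for EXOSC5, and 2 were higher, with 1.63 for USB1, which trims U6.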

How the data were processed

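Per the labels and the study's methods, the authors isolated total RNA from NALM6 cells, trimmed reads with cutadapt, aligned them to GRCh37 with STAR and counted them per gene with HTSeq, which gave the deposited raw count table used here. The annotation, strand setting and treatment of multiply mapped reads are not given in the sources used here. A second table deposited by the authors holds log2 of FPKM + 1 from RSEM for 16730 genes. Its sorted values are nearly equal between libraries of a treatment, and it served only as an alternative. The fold changes and p-values of the authors' own comparison in that table were not used. No column belonged to another sample. 

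Counts were tested with edgeR 4.0.16 (R 4.3.3): filterByExpr at 10 counts and a total of 15, TMM factors, quasi-likelihood fit of treatment with 3 libraries per group, Benjamini-Hochberg adjustment over 16622 genes and a threshold of 0.05, counted also at 1.5 log2. The fit was tested on simulated data before use. Alternatives used DESeq2 1.42.0 and limma 3.58.1. Positions, hosts and sequences came from a GENCODE annotation lifted to GRCh37 and the GRCh37 genome. A host contains the small RNA on the same strand. Lower bounds set each DMSO library to 3 counts. Ratio intervals are exact at 95%, pool the 3 libraries of a treatment and cover counting error only. They do not allow for selection by the minimum and are no test. 

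Members and lists were chosen with earlier results of these data known. The rule for naming took every small nuclear, 7SK, 7SL and RMRP gene that is no copy, the 4 members of each other class with the highest mean CPM, the 3 highest and 3 lowest fold changes of each class among members counted in all libraries, the 3 members with the highest CPM of those counted with 1 treatment only, genes at the minimum, their hosts, and the extremes of each list of partner proteins. Other genes named were chosen after their values were seen, among them SNORD13, SNORD3B-2, SNORD91A, SNORA84, the SNORA71 genes, RNU6-254P, MEPCE, the copies in MCL1 and the parents below the minimum. A few items, among them 1 marker gene and some sequences, are not reported here.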

Additional observations from a re-analysis of the deposited data

How the results depend on the processing

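The calls of the members counted in all 6 libraries rested little on the settings. Over 167 alternative fits of the 11 members, 161 kept direction and side of the threshold, and no call was lost. SNORD63 passed with upper quartile factors (0.71, adjusted p = 0.048, edgeR) and SNORA66 with library sizes alone (−0.65, adjusted p = 0.04). SNORA33 turned sign with upper quartile factors (0.044) and without DMSO replicate 3 (range with libraries left out −0.38 to 0.22), and SNORA73B with library sizes alone (−0.14) and without DMSO replicate 1 (range −0.034 to 0.25). Leaving out any 1 library, the 4 counts of called members stayed at 5, 1, 4 and 0. In the FPKM table, which lists 8 of the 11, limma called 3 higher and 2 by at least 1.5 log2 with either pseudocount and with a mean FPKM of at least 1. Library sizes alone called 2 lower. A minimum of 5 counts in all 6 libraries gave 29 genes, with 13 higher, 2 lower and 11 higher by at least 1.5 log2. A minimum of 20 gave 5 genes, with 3 higher. Members of 1 treatment's minimum numbered 177 at 5 counts and 37 at 20, of which 75.7% and 81.1% were counted with THZ1 only.

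Class medians of so few members moved more. For all 11 the median log2 fold change was 0.59 with DESeq2, 0.65 with at least 10 counts in every library, 0.27 with library sizes alone, 0.33 in the FPKM table with a pseudocount of 0.1 and 0.31 with 1, also at a mean FPKM of at least 1, 0.43 with no filter, 0.71 with upper quartile factors, 0.81 at a minimum of 5 counts and 2.80 at 20, and 0.37 to 0.74 with libraries left out. For box C/D RNAs, in the same order, it was 1.63, 1.69, 1.31, 1.08, 1.06, 1.47, 1.75, 0.55 and 2.80, with 1.62 for RLE factors and 1.48 to 1.66 with libraries left out. The FPKM values cover 3 of these RNAs, and those at 5 and 20 counts cover 9 genes and 1 gene. For box H/ACA RNAs it was −0.39 with library sizes alone, 0.044 with upper quartile factors and −0.38 to 0.070 with libraries left out. At minimums of 5 and 20 counts it was 0.040 (10 genes) and 0.11 (1 gene). For copies it was −0.36 with library sizes alone, −0.32 and −0.33 in the FPKM table with pseudocounts of 0.1 and 1, 2.29 at 5 counts and −0.70 at 20. For Pol III RNAs, the FPKM table, with 1 of the 2, gave 3.84 and 3.79. The cause was not tested beyond the number of genes, and upper quartile factors and library sizes alone moved the median of all genes by 0.19 and −0.25.

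The log2 ratios of class sums were 4.40 for Pol III, 4.85 for Pol II small nuclear RNAs, 1.89 for box C/D, 1.95 for box H/ACA, 3.26 for small Cajal body RNAs, 2.61 for copies and 2.66 for all. With upper quartile factors they were 2.09 for box C/D, 2.14 for box H/ACA, 3.45 for small Cajal body RNAs, 2.80 for copies and 2.85 for all. With library sizes alone these were 1.64, 1.70, 3.01, 2.36 and 2.41. Without the gene with the most counts they were 4.10 for Pol III, 1.71 for box C/D, 1.71 for box H/ACA, 3.15 for small Cajal body RNAs and 2.44 for all. All stayed above 0. The counts of hosts and partner proteins that were higher or lower stayed within 1.5 times, from 9 to 18 and 11 to 18 hosts and from 21 to 32 and 59 to 75 partner genes.

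The labels number replicates 1 to 3 in both treatments, but same-numbered libraries did not deviate together (correlations −0.0040, 0.00097 and 0.0206, against −0.0178 to 0.0170 for other pairs). Such correlations cannot show whether same-numbered libraries were prepared together, which the labels do not say. With the replicate number as a block, 5 members were higher, 1 lower, 4 higher by at least 1.5 log2 and 0 lower, and no call changed. Counting RNU2-2P with the Pol II small nuclear RNAs gave no value, since it had no counts. Depth limits what can be said of low genes: 3 counts are 0.246 to 0.253 CPM in a DMSO library and 0.394 to 0.415 CPM in a THZ1 library, and a member listed at 0 with DMSO may have been present below that.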

Other observations

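Among genes of these classes that missed the minimum of 10 counts, the 377 box H/ACA genes held 11.8 ± 0.507 CPM in DMSO libraries and 39.3 ± 4.52 CPM in THZ1 libraries (SD, n = 3), and the 373 box C/D genes held 13.5 ± 2.33 and 25.5 ± 2.26 CPM. The 47 small Cajal body RNA genes held 1.55 ± 0.270 and 10.1 ± 0.390 CPM. In each of these groups every THZ1 library lay above every DMSO library. Of all genes tested, taken singly, 84.7% did not overlap between treatments, in either direction. RNU4ATAC, a small nuclear RNA of the minor spliceosome, had 1, 1 and 1 counts with DMSO and 4, 2 and 7 with THZ1. RNY1, RNY3 and RNY4 had 0 counts in all 6 libraries.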
